A study of Homo sapiens with 16 samples.

Results

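The 1047 intervals of chromosome 10 in 4 lists of TOP2B occupancy are described here, out of 44922 intervals on all chromosomes. They were chosen by position alone: every interval that the lists place on chromosome 10 of GRCh37 was taken, assigned by its midpoint to windows of 5 Mb, and the pericentromere at 38 to 43 Mb was kept apart from the short arm below it and the long arm above it. The cells were PC9, an established human lung adenocarcinoma line, mapped with CUT&RUN, where a nuclease guided by an antibody releases the bound DNA for sequencing. The 4 conditions were METTL7A knockout with osimertinib, wild type with osimertinib, METTL7A knockout untreated and wild type untreated, and each had 2 replicate TOP2B libraries that the authors combined into 1 list of intersected peaks. Treated cells had spent 6 to 8 weeks under osimertinib, which blocks mutant EGFR, at doses raised from 100 nM. The labels do not say if the knockout was a single clone or if replicates came from separate cultures.

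TOP2B is the beta form of DNA topoisomerase II, an enzyme that cuts both strands of one DNA helix, passes another through the break and reseals it. It relieves torsion around transcribed genes and is known to sit at promoters, enhancers and the anchors of chromatin loops. The pericentromere is built largely of repeated satellite DNA, and the reference assembly has an unsequenced gap there. METTL7A belongs to a family of methyltransferase-like proteins.

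With 1 list per condition there was no spread between replicates to set a difference against and no test between conditions. All intervals in brackets are 95% intervals for counting error only, and neighbouring intervals are not independent. A share ratio divides the share of one list found in a region by the share of the other list found there. If either list has none there, the bound of the ratio's 95% interval is given instead, as at most or at least. Where a list has no interval, no peak was called and kept there, and binding below that level cannot be seen. No annotation of GRCh37 was used, so intervals are given by position, counted from 1, and not by gene.

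Chromosome 10 took up a larger part of the treated wild-type list than of the others. It held 163 of 7493 intervals in treated knockout (2.18%, 1.86 to 2.53), 346 of 9655 in treated wild type (3.58%, 3.22 to 3.97), 237 of 12493 in untreated knockout (1.9%, 1.67 to 2.15) and 301 of 15281 in untreated wild type (1.97%, 1.76 to 2.2). Treated wild type was the only list with more intervals here than untreated wild type, although it was shorter as a whole. The share ratio was 1.82 (1.55 to 2.13) for osimertinib over untreated in wild type and 0.607 (0.501 to 0.733) for knockout over wild type under osimertinib. For osimertinib over untreated in the knockout it was 1.15 (0.934 to 1.41), and for knockout over wild type without drug 0.963 (0.809 to 1.15), both with intervals that include equality. Chromosome 9, of similar length, had a ratio close to that of chromosome 10 for osimertinib over untreated in wild type (1.84, 1.62 to 2.09), while chromosome 11 had 0.979 (0.882 to 1.08). For knockout over wild type under osimertinib both were low as well, at 0.291 (0.237 to 0.355) and 0.654 (0.568 to 0.752). For osimertinib in the knockout they had 0.756 (0.605 to 0.94) and 0.739 (0.644 to 0.847). For knockout over wild type without drug they had 0.709 (0.608 to 0.826) and 0.866 (0.784 to 0.956).

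**Figure D1:**
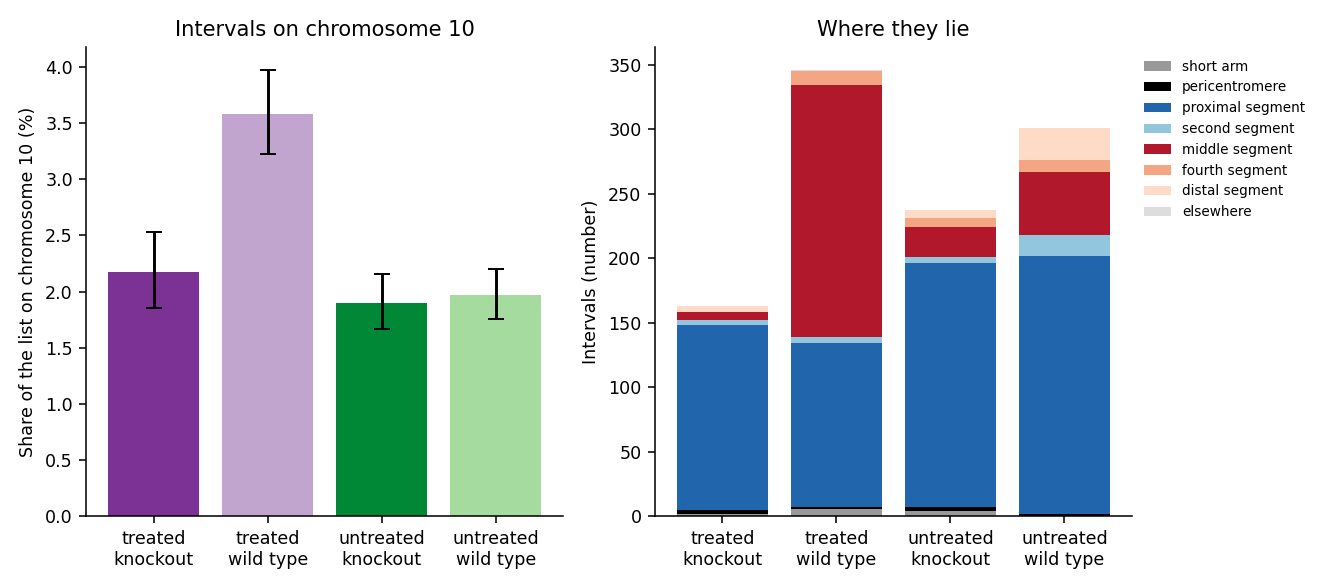
Left, share of each list on chromosome 10 in percent, with bars for the value and error bars for the exact 95% counting interval; right, number of chromosome 10 intervals by region in the same lists. Treated wild type has the highest share (3.58%) and is the one list in which the middle segment (70.6 to 82.4 Mb), with 195 intervals, holds more than the proximal segment (43.2 to 51.6 Mb), with 127.

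Within the chromosome the intervals were gathered in a few stretches of the long arm. The long arm held 158 of 163 intervals in treated knockout (96.9%), 339 of 346 in treated wild type (98%), 230 of 237 in untreated knockout (97%) and 299 of 301 in untreated wild type (99.3%). Joining the arm intervals of the 4 lists wherever midpoints lay within 2 Mb, and keeping groups of at least 10, gave 5 segments, all on the long arm; these were drawn after the positions had been seen. They are called here the proximal segment (43.2 to 51.6 Mb), the second (61.6 to 66.1 Mb), the middle (70.6 to 82.4 Mb), the fourth (85.3 to 86.4 Mb) and the distal segment (97.3 to 106.1 Mb). Between them lay stretches with no interval in any list, the longest from 86356551 to 97274500, 10.9 Mb. Beyond 106089600 there was none to the end of the chromosome.

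The short arm was almost bare. It had 2 intervals in treated knockout, 6 in treated wild type, 4 in untreated knockout and 0 in untreated wild type. These 12 intervals lay at 12 different positions with no overlap between lists. Over all chromosomes, 72.9% of the 29197 positions formed by joining overlapping intervals belonged to a single list. In treated knockout the short-arm intervals were at 13785401 to 13786300 and 31093451 to 31094450. The untreated knockout had one near the end of the arm, at 529901 to 531750, and others at 12471201 to 12473000, 20931401 to 20932600 and 30474501 to 30476050. In treated wild type the interval with the highest maximum was at 30315801 to 30316650, 1.18 times the list median. All 12 had maxima between 0.625 and 1.2 times the median of their list, so they were ordinary or low peaks. From 31094451 to 38816050 no list had an interval.

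The pericentromere held few intervals, but 1 of them belonged to the highest called peaks of every list. There were 3 in treated knockout, 1 in treated wild type, 3 in untreated knockout and 2 in untreated wild type. At the long-arm side, the interval 42384801 to 42385750 in treated knockout, 42384851 to 42385800 in treated wild type, 42384851 to 42385850 in untreated knockout and 42384851 to 42385750 in untreated wild type shared 900 bases, and in all 4 lists the maximum fell on the same 50 bp bin, 42385151 to 42385200. The maximum is the highest coverage within the called peak, in the authors' scaling. It can lie outside the interval that was kept, as it did for 79 of 163 intervals of chromosome 10 in treated knockout (48.5%), 251 of 346 in treated wild type (72.5%), 28 of 237 in untreated knockout (11.8%) and 144 of 301 in untreated wild type (47.8%), so elsewhere a maximum belongs to the called peak and not to the interval's position. Here it was 26.6 times the list median in treated knockout, 25.5 times in treated wild type, 27 times in untreated knockout and 27.9 times in untreated wild type. It ranked 7 among 6023 called peaks in treated knockout, 7 among 6616 in treated wild type, 7 among 12284 in untreated knockout and 6 among 10488 in untreated wild type. Relative to its own list this peak therefore varied little between conditions, between 25.5 and 27.9 times. The repeat content of the position was not examined, and the sources used here do not say if a list of excluded regions was applied.

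The other pericentromeric intervals were much lower. At the short-arm side an interval was present in treated knockout (38817501 to 38818000, 1.38 times the list median), untreated knockout (38816051 to 38818650, 1.8 times) and untreated wild type (38817051 to 38818700, 1.75 times), and these overlapped one another. Treated wild type had none there. One further interval appeared in treated knockout, at 42393701 to 42394400 (1.88 times), and another in untreated knockout, at 42599551 to 42600450 (3.2 times), each in a single list. The stretch from 38818701 to 42384800 had no interval in any list. The assembly has its unsequenced gap in the pericentromere, where no interval can be called, and the limits of the gap were not examined. With 1 to 3 intervals per list, share ratios for the pericentromere had wide intervals in all 4 comparisons, for example 3.87 (0.31 to 202.9) for knockout over wild type under osimertinib. Above the pericentromere the first interval of any list started at 43247701.

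**Figure D2:**
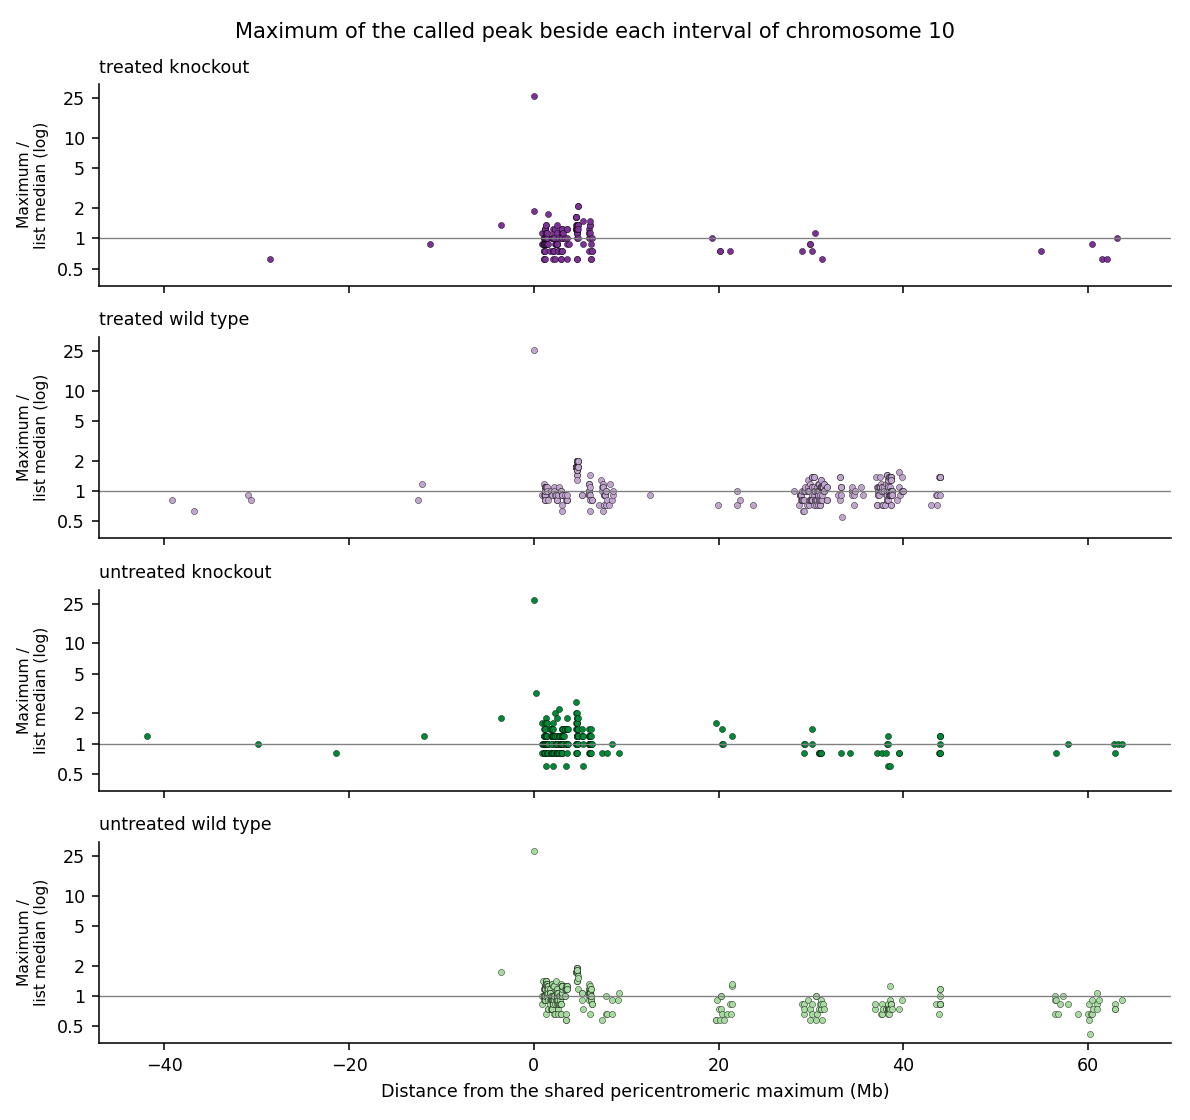
Maximum of the called peak beside each interval of chromosome 10, divided by the median maximum of its list (log axis), against distance from the shared pericentromeric maximum in Mb; each point is 1 interval and the grey line marks the list median. One point per list stands at 25.5 to 27.9 times the median, and the remaining points of treated knockout, treated wild type, untreated knockout and untreated wild type reach at most 2.12, 2, 3.2 and 1.92 times.

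The proximal segment was the main site of TOP2B intervals in 3 of the 4 lists. It held 143 intervals in treated knockout (87.7% of the chromosome, 81.7 to 92.3), 127 in treated wild type (36.7%, 31.6 to 42), 189 in untreated knockout (79.7%, 74.1 to 84.7) and 200 in untreated wild type (66.4%, 60.8 to 71.8). That is 17.2, 15.3, 22.7 and 24 intervals per Mb in the same order of lists. The segment was the densest part of the chromosome in each list, except that the middle segment had 16.5 per Mb in treated wild type. Measured against list length, its share was 1.45 times as high in treated knockout as in treated wild type (1.13 to 1.86), and 1.26 times as high in treated as in untreated knockout (1.01 to 1.58). By called peaks the last ratio was 1.2 (0.935 to 1.52), which includes equality. The share by intervals was nearly equal between treated and untreated wild type (1.01, 0.798 to 1.26), and 1.156 (0.942 to 1.42) for untreated knockout over untreated wild type.

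Equality of the total in wild type covered a shift of interval counts within the segment. At 43 to 46 Mb there were 47 intervals in treated and 140 in untreated wild type, a share ratio of 0.531 (0.373 to 0.744), whereas at 47 to 51 Mb there were 68 and 55 (1.96, 1.35 to 2.84). The 1 Mb between them, 46 to 47 Mb, had 12 and 3 (6.33, 1.71 to 35). These 12 were all pieces of a called peak split into 17 intervals, and the 3 were 14700, 6700 and 9050 bp wide. At 46.96 to 47.14 Mb, 40 treated wild-type intervals from 6 called peaks covered 60 kb. In untreated wild type 19 intervals from 8 called peaks covered 130 kb there. The ratios at 46 to 47 Mb and at 47 to 51 Mb thus depend on how peaks were split. In the knockout all 3 parts had ratios above 1 with intervals that include equality: 89 treated and 122 untreated intervals at 43 to 46 Mb gave 1.22 (0.915 to 1.61), 12 and 9 at 46 to 47 Mb gave 2.22 (0.86 to 5.97), and 42 and 57 at 47 to 51 Mb gave 1.23 (0.805 to 1.86). With 1 list each, the difference between genotypes has no test. Window by window, treated wild type had 22 intervals at 43 to 44 Mb, 11 at 44 to 45 Mb and 14 at 45 to 46 Mb, against 46, 51 and 43 in untreated wild type. At the far end, 49 to 51 Mb, it had 9 and 13 intervals per Mb, against 1 and 5 in untreated wild type. Treated knockout had 42, 26 and 21 intervals in the same 3 windows from 43 Mb, against 44, 39 and 39 in untreated knockout, and none between 49 Mb and the end of the segment. These limits within the segment were chosen after the counts had been seen.

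A stretch of wide peaks at 46963701 to 47141200 (46.96 to 47.14 Mb) stood apart within the proximal segment in all lists. Its limits come from the joined positions of these same 4 lists, which follow each other there with gaps of up to 20 kb. What the stretch holds therefore depends in part on how it was drawn. Intervals covered 57.1 kb of these 177.5 kb in treated knockout (32.2%), 60 kb in treated wild type (33.8%), 103 kb in untreated knockout (57.8%) and 130 kb in untreated wild type (73.3%). The stretch made up 28.2% of all bases covered on chromosome 10 in treated knockout, 13.3% in treated wild type, 22.6% in untreated knockout and 13.5% in untreated wild type. The widest interval of the arms lay here in each list: 47052851 to 47057350 in treated knockout, 46990051 to 46995950 in treated wild type, 46993501 to 47007950 in untreated knockout and 47118201 to 47133100 in untreated wild type, with widths of 4500, 5900, 14450 and 14900 bp in that order. The highest called peak of the arms was here too. It was at 47126151 to 47128350 in treated knockout (2.12 times the list median), 47076901 to 47112550 in treated wild type (2 times), 46964451 to 46973850 in untreated knockout (2.6 times) and 47020601 to 47037750 in untreated wild type (1.92 times). By the same measure of maxima, the next called peaks of the arms in treated wild type (46964401 to 47025450 and 47125801 to 47137150) and in untreated wild type (47077051 to 47099800 and 46964401 to 46986150) were in this stretch as well. In the knockout lists, peaks of single intervals at 43932301 to 43932700 (treated, 1.75 times, with the maximum beside the interval at 43931851 to 43931900) and 45065301 to 45066450 (untreated, 2.2 times) came second.

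The lists cut this stretch up differently. The 40 intervals of treated wild type were pieces of 6 called peaks, one of which gave 17 intervals between 46964401 and 47025450. Treated knockout had 36 intervals from 20 called peaks, untreated knockout 31 from 31, and untreated wild type 19 from 8. Over the whole chromosome, 38% of the intervals in treated knockout, 50.6% in treated wild type, 2.53% in untreated knockout and 46.5% in untreated wild type were pieces of a split peak. Counted as called peaks, chromosome 10 had 128 in treated knockout, 232 in treated wild type, 234 in untreated knockout and 217 in untreated wild type. The same splitting was found on the remaining chromosomes, at 33.6%, 49.9%, 3.35% and 50% in that order of lists.

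In the middle segment, 70.6 to 82.4 Mb, treated wild type had more intervals than the other lists together. It held 6 intervals in treated knockout (3.68% of the chromosome, 1.36 to 7.84), 195 in treated wild type (56.4%, 51 to 61.7), 23 in untreated knockout (9.7%, 6.25 to 14.2) and 49 in untreated wild type (16.3%, 12.3 to 20.9). The share ratio was 6.3 (4.58 to 8.8) for osimertinib over untreated in wild type, and 5.04 (3.57 to 7.25) by called peaks. In the knockout the same comparison gave 0.435 (0.145 to 1.1), on few intervals and with an interval that includes equality. Treated knockout over treated wild type gave 0.0396 (0.0144 to 0.0879), and untreated knockout over untreated wild type 0.574 (0.334 to 0.961). Treated wild type thus had the highest count here both against its untreated counterpart and against the treated knockout.

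Inside the middle segment the treated wild-type intervals formed 2 main groups. The 1 Mb windows from 71 to 74 Mb held 20, 31 and 38 intervals, against 4, 8 and 10 in untreated wild type, and those from 79 to 82 Mb held 15, 43 and 19, against 3, 18 and 5. Both groups were thus present, at lower counts, in untreated wild type. Treated knockout had 1, 4 and 1 intervals from 71 to 74 Mb, against 3, 2 and 6 in untreated knockout. From 74 Mb to the end of the segment treated knockout had 0 intervals. The highest called peaks of the segment in treated wild type were at 81937601 to 81938950 (1.55 times the list median) and 80561051 to 80572650 (1.45 times), and several tied for the next place at 1.36 times. They were lower than the highest peaks of the stretch at 46.96 to 47.14 Mb.

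The treated wild-type positions in the middle segment were mostly not those of the untreated list. Of the 195 treated wild-type intervals, 9 overlapped an untreated wild-type interval by at least 1 bp (4.62%, 2.13 to 8.58), among them 81937601 to 81938950, and none of the 195 overlapped a treated knockout interval (0%, 0 to 1.87). Over all chromosomes the shares of the treated wild-type list were 28.7% and 10.5% in that order. Treated knockout had only 6 intervals in the middle segment, covering 4.5 kb, so there was little to overlap. In the proximal segment 81 of 127 treated wild-type intervals had an untreated counterpart (63.8%, 54.8 to 72.1) and 49 of 127 had one in treated knockout (38.6%, 30.1 to 47.6). Counted the other way, 9 of 49 untreated wild-type intervals of the middle segment overlapped a treated wild-type interval (18.4%, 8.76 to 32). In the proximal segment 52 of 200 did so (26%, 20.1 to 32.7), and over all chromosomes 14.8% of the untreated wild-type list. The segments thus differed less in this direction. Untreated wild type had 4.15 intervals per Mb in the middle and 24 in the proximal segment, and the part of this density in the overlap was not tested. In the 9 overlapping treated wild-type intervals the maximum relative to the list median was higher than in untreated wild type, with a median log2 ratio of 0.54 (interquartile range 0.42 to 0.57). Across the 81 of the proximal segment it was -0.02 (-0.29 to 0.13). These values describe pairs chosen by both lists having a peak there. Among all intervals of the middle segment, the median maximum was 1 times the list median in treated and 0.75 times in untreated wild type. These medians include the overlapping intervals and count the maximum of a split peak once per piece. Medians without the overlapping intervals were not taken.

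The remaining segments were small. The second segment held 4 intervals in treated knockout, 5 in treated wild type, 5 in untreated knockout and 16 in untreated wild type. The fourth had 0 in treated knockout, 11 in treated wild type, 7 in untreated knockout and 9 in untreated wild type, and 8, 7 and 8 of those in the last 3 lists lay between 86 and 87 Mb. Of these intervals, 6 of 11 in treated wild type and 6 of 7 in untreated knockout overlapped one of untreated wild type. The highest maximum was 1.36 times the list median in treated wild type, at 86292801 to 86309500 and 86344201 to 86354050 alike. In untreated knockout it was 1.2 times, shared by 3 peaks between 86341601 and 86354750, and in untreated wild type 1.17 times, at 86341901 to 86349750. The distal segment held 5 intervals in treated knockout, 0 in treated wild type, 6 in untreated knockout and 25 in untreated wild type. The share ratio there was at most 0.252 for osimertinib over untreated in wild type, 0.294 (0.0985 to 0.733) for untreated knockout over untreated wild type and 1.39 (0.335 to 5.46) for osimertinib over untreated in the knockout. For treated knockout over treated wild type, with 5 and 0 intervals, the lower counting bound was 1.18, and 1.01 by called peaks. In untreated wild type the distal intervals were led by 103337451 to 103340450 (1.08 times the list median), and the segment's median maximum was 0.833 times that of the list.

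**Figure D3:**
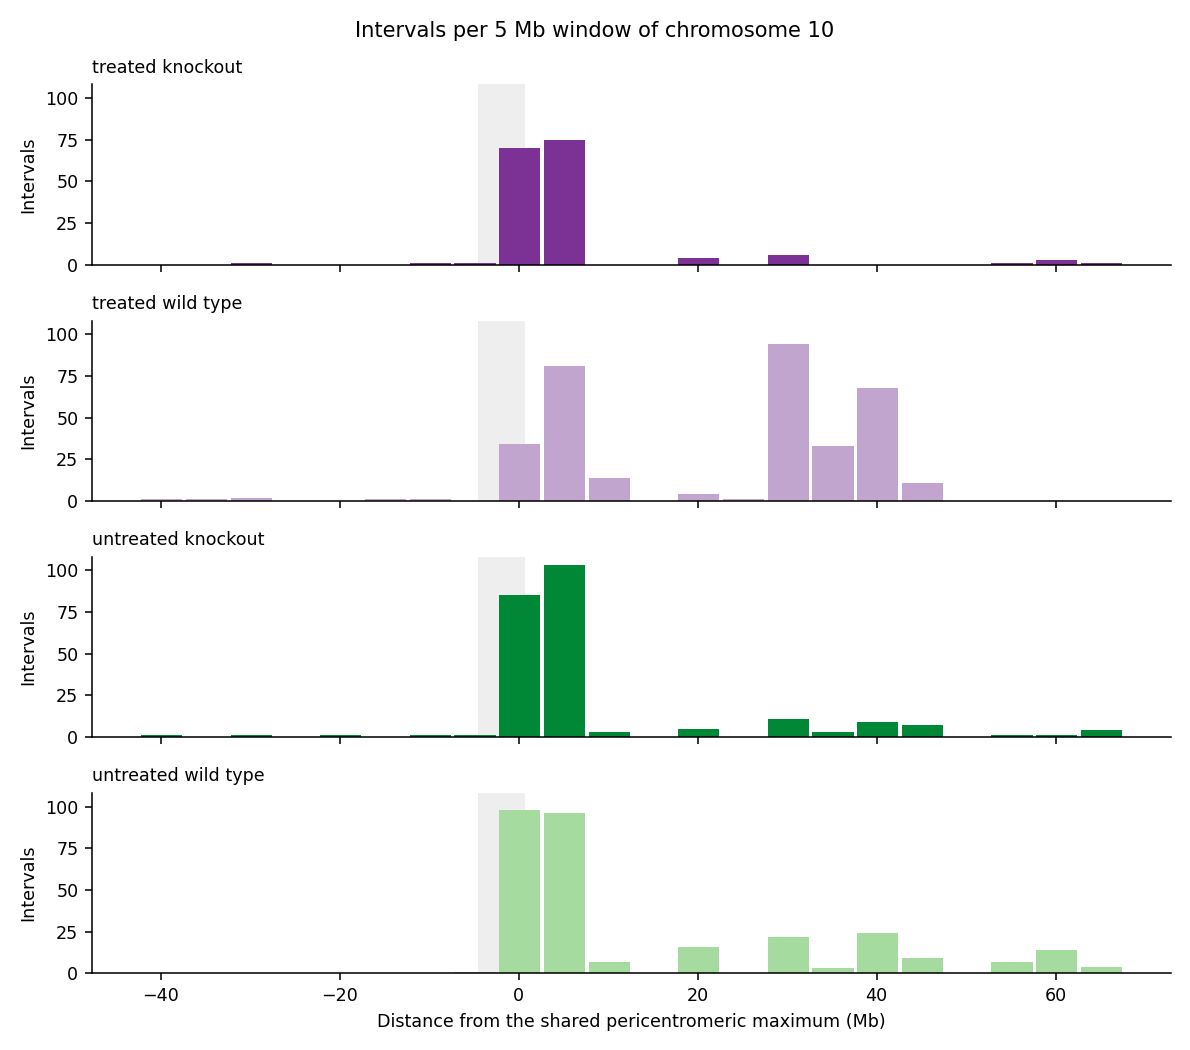
Number of intervals per 5 Mb window of chromosome 10 in each list, against distance of the window's centre from the shared pericentromeric maximum in Mb; the shaded band is the pericentromere. The window next to 0 also takes in the first 2 Mb of the long arm beyond the band, which supplies all but 2, 1, 2 and 1 of its 70, 34, 85 and 98 intervals from the top panel down.

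In windows of 5 Mb, the comparison of osimertinib with no treatment in wild type asks which regions gained or lost TOP2B intervals in cells grown under the drug. Of the 9 windows of chromosome 10 with at least 10 intervals in either list, 6 differed at least 2-fold in share (with 0.5 added to each count), 4 of them higher and 2 lower in treated wild type. Over all chromosomes 65.1% of 235 windows did so, 31.9% higher and 33.2% lower, so the count on chromosome 10 is near the background. The 3 windows with the highest share under osimertinib were 75 to 80 Mb, with 33 treated and 3 untreated intervals (17.4, 5.46 to 88.7), 70 to 75 Mb with 94 and 22 (6.76, 4.22 to 11.3) and 80 to 85 Mb with 68 and 24 (4.48, 2.78 to 7.47). At 50 to 55 Mb the counts were 14 and 7 (3.17, 1.2 to 9.27). Those with the lowest were 100 to 105 Mb with 0 and 14 (at most 0.477), 60 to 65 Mb with 4 and 16 (0.396, 0.0963 to 1.23) and 40 to 45 Mb with 34 and 98 (0.549, 0.36 to 0.819). The 4 higher windows lay between 50 and 85 Mb, and the window at 40 to 45 Mb was not past 2-fold.

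For the knockout, the comparison of osimertinib with no treatment found no window of chromosome 10 past 2-fold among 3 with at least 10 intervals, against 23.3% of 163 windows over all chromosomes (4.29% higher, 19.0% lower). At 40 to 45 Mb there were 70 treated and 85 untreated intervals (1.37, 0.986 to 1.91), at 45 to 50 Mb 75 and 103 (1.21, 0.889 to 1.65), and at 70 to 75 Mb 6 and 11 (0.909, 0.276 to 2.68). All 3 intervals of the ratio include equality. The windows at 80 to 85 Mb and 85 to 90 Mb were below the minimum, with 0 treated and 9 and 7 untreated intervals.

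Under osimertinib, knockout and wild type both had intervals in the proximal segment, and the windows examined farther out held few or none in the knockout. The distal segment, where no window had enough intervals, went the other way, with 5 in treated knockout and 0 in treated wild type. Among 7 windows with enough intervals, the share in treated knockout was at least 2-fold higher in 1 and at least 2-fold lower in 5, 6 in all, against 75.1% of 193 windows over all chromosomes (26.9% higher, 48.2% lower), so that the count on chromosome 10 is near the background. The higher one was 40 to 45 Mb, with 70 intervals in treated knockout and 34 in treated wild type (2.65, 1.74 to 4.12), next to 45 to 50 Mb with 75 and 81 (1.19, 0.86 to 1.65). Treated knockout had no interval at 80 to 85 Mb, against 68 in treated wild type (at most 0.0718), none at 75 to 80 Mb, against 33 (at most 0.152), none at 50 to 55 Mb, against 14 (at most 0.388), and none at 85 to 90 Mb, against 11 (at most 0.513). At 70 to 75 Mb it had 6, against 94 (0.0822, 0.0294 to 0.186).

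Without drug, the share ratios of knockout over wild type included equality in the windows of the proximal segment and were lower farther out, with an interval below equality in 1 window. Of 6 windows examined, 3 were at least 2-fold lower in untreated knockout and 0 at least 2-fold higher, against 18.3% lower and 5.29% higher among 208 windows over all chromosomes (23.6% in either direction). The 3 lower ones were 100 to 105 Mb, with 1 knockout and 14 wild-type intervals (0.0874, 0.00207 to 0.574), 60 to 65 Mb with 5 and 16 (0.382, 0.11 to 1.09) and 80 to 85 Mb with 9 and 24 (0.459, 0.188 to 1.02). The intervals of the last pair include equality. Highest in share were 45 to 50 Mb with 103 and 96 (1.31, 0.984 to 1.75), 40 to 45 Mb with 85 and 98 (1.06, 0.784 to 1.43) and 70 to 75 Mb with 11 and 22 (0.612, 0.268 to 1.32).

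**Figure D4:**
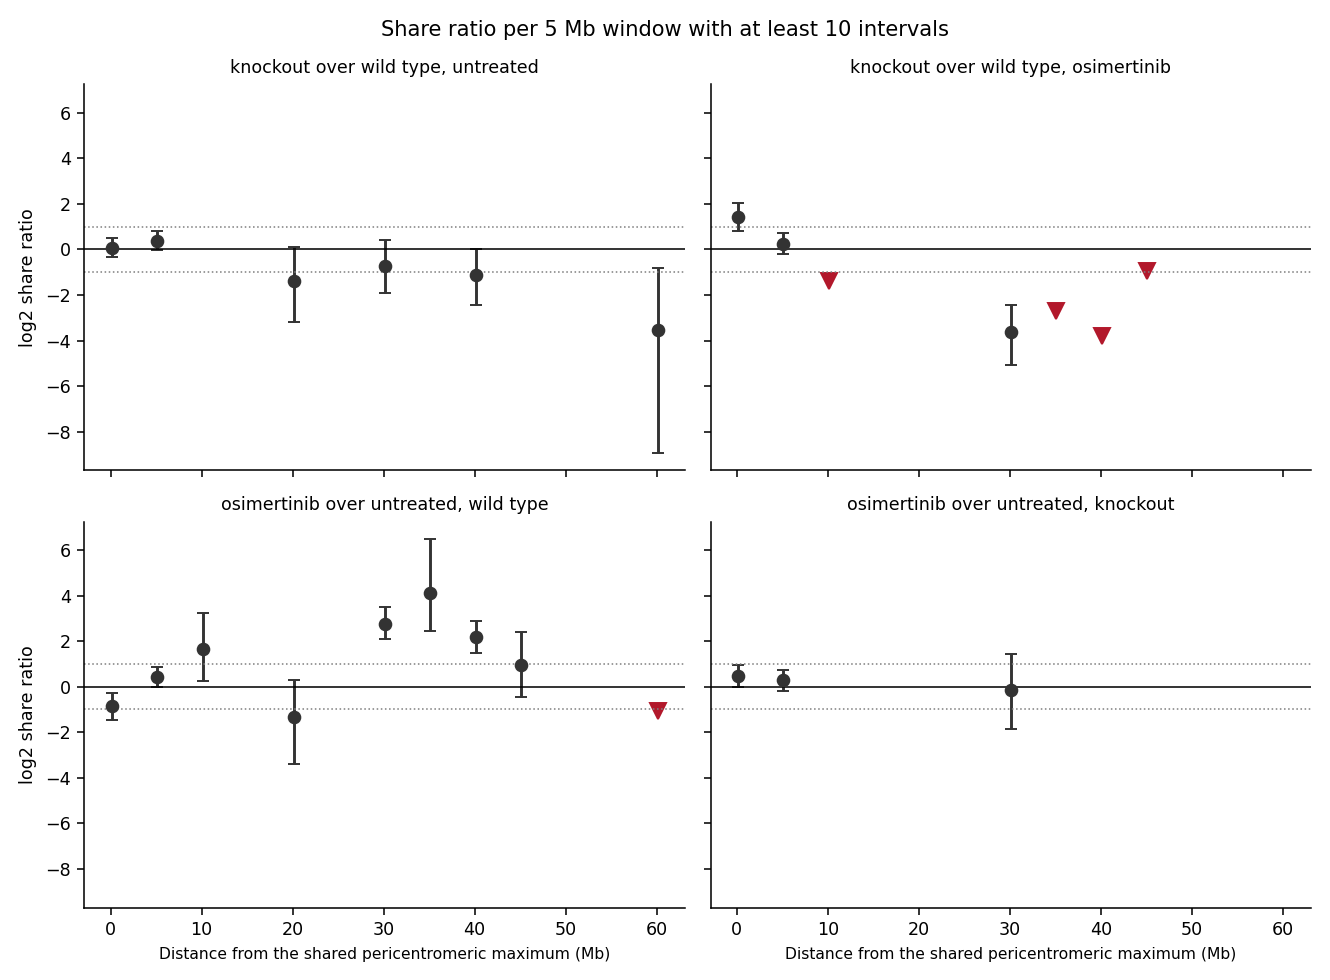
Log2 ratio of list shares for each 5 Mb window of chromosome 10 with at least 10 intervals in either list, against distance of the window's centre from the shared pericentromeric maximum in Mb; circles are ratios with 95% counting intervals, triangles mark the upper bound where the first-named list has no interval, and dotted lines mark a 2-fold ratio. The 3 windows from 70 to 85 Mb have ratios of 4.48 to 17.4 for treated over untreated wild type, while the 3 windows examined in the knockout have ratios between 0.909 and 1.37.

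Across the 51 windows of 1 Mb on chromosome 10 with an interval in any list, interval counts had a Spearman's rho of 0.743 between untreated knockout and untreated wild type, 0.477 between treated and untreated knockout, 0.466 between treated and untreated wild type and 0.167 between treated knockout and treated wild type. For these pairs, in that order, Pearson's r came to 0.956, 0.955, 0.488 and 0.405. These are descriptions across windows of single lists, which are not independent, and empty windows were left out.

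Positions were compared by overlap of at least 1 bp. Of the 163 treated knockout intervals, 47 overlapped one of treated wild type (28.8%, 22 to 36.4), against 13.4% of that list over all chromosomes, and of the 346 treated wild-type intervals 50 overlapped one of treated knockout (14.5%, 10.9 to 18.6), against 10.5%. For osimertinib over untreated in the knockout the shares were 50.9% of the treated (43 to 58.8; 43.7% over all chromosomes) and 31.2% of the untreated intervals (25.4 to 37.5; 23.4% overall). In wild type they were 28% of the treated (23.4 to 33.1; 28.7% overall) and 22.9% of the untreated intervals (18.3 to 28.1; 14.8% overall). Between the untreated lists, 54.4% of the knockout (47.9 to 60.9; 53.7% overall) and 34.9% of the wild-type intervals (29.5 to 40.6; 35.1% overall) had a counterpart. Chromosome 10 was thus close to the whole lists without drug. Treated knockout intervals with a counterpart in treated wild type were more frequent here than in the rest of that list (13.1%, 12.3 to 13.9), and 46 of the 47 lay in the proximal segment.

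Joining all overlapping intervals of the 4 lists gave 669 positions on chromosome 10. A single list accounted for 515 of them (77%, 73.6 to 80.1), against 72.9% of 29197 positions over all chromosomes. Positions of 2 lists numbered 83 (12.4%, against 17.2%) and those of 3 lists 40 (5.98%, against 7.61%). All 4 lists shared 31 (4.63%, 3.17 to 6.51), against 2.29% over all chromosomes. The largest class was found in treated wild type alone, with 234 positions (35%, 31.4 to 38.7; 21.4% over all chromosomes), of which 181 were in the middle segment. Next came untreated wild type alone with 158 (23.6%), untreated knockout alone with 87 (13%) and treated knockout alone with 36 (5.38%). Over all chromosomes these 3 classes made up 27.1%, 16.8% and 7.56%, each a larger share than on chromosome 10. Positions in all lists except treated wild type numbered 23 (3.44%, 2.19 to 5.11; 5.26% over all chromosomes).

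The positions occupied in all 4 lists were confined to the proximal segment, with 30, and the pericentromere, with 1, among the regions of chromosome 10. Of the 31, 14 lay at 43 to 46 Mb, 12 at 46.96 to 47.14 Mb and 4 at 48 to 49 Mb. In 19 of them some bases were inside an interval of every list, 25.25 kb in all, and 21.45 kb of this was at 46.96 to 47.14 Mb. The longest were at 46964401 to 46979100 with 6900 shared bases, at 46989351 to 47007950 with 3600 and at 47092101 to 47099800 with 2000. In the first, intervals covered 9400 bp in treated knockout, 9650 in treated wild type, 14050 in untreated knockout and 14700 in untreated wild type. The other 12 positions were joined through overlaps between some of the lists, with no base common to all. The stretch at 46.96 to 47.14 Mb was itself drawn from joined positions of these lists.

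**Figure D5:**
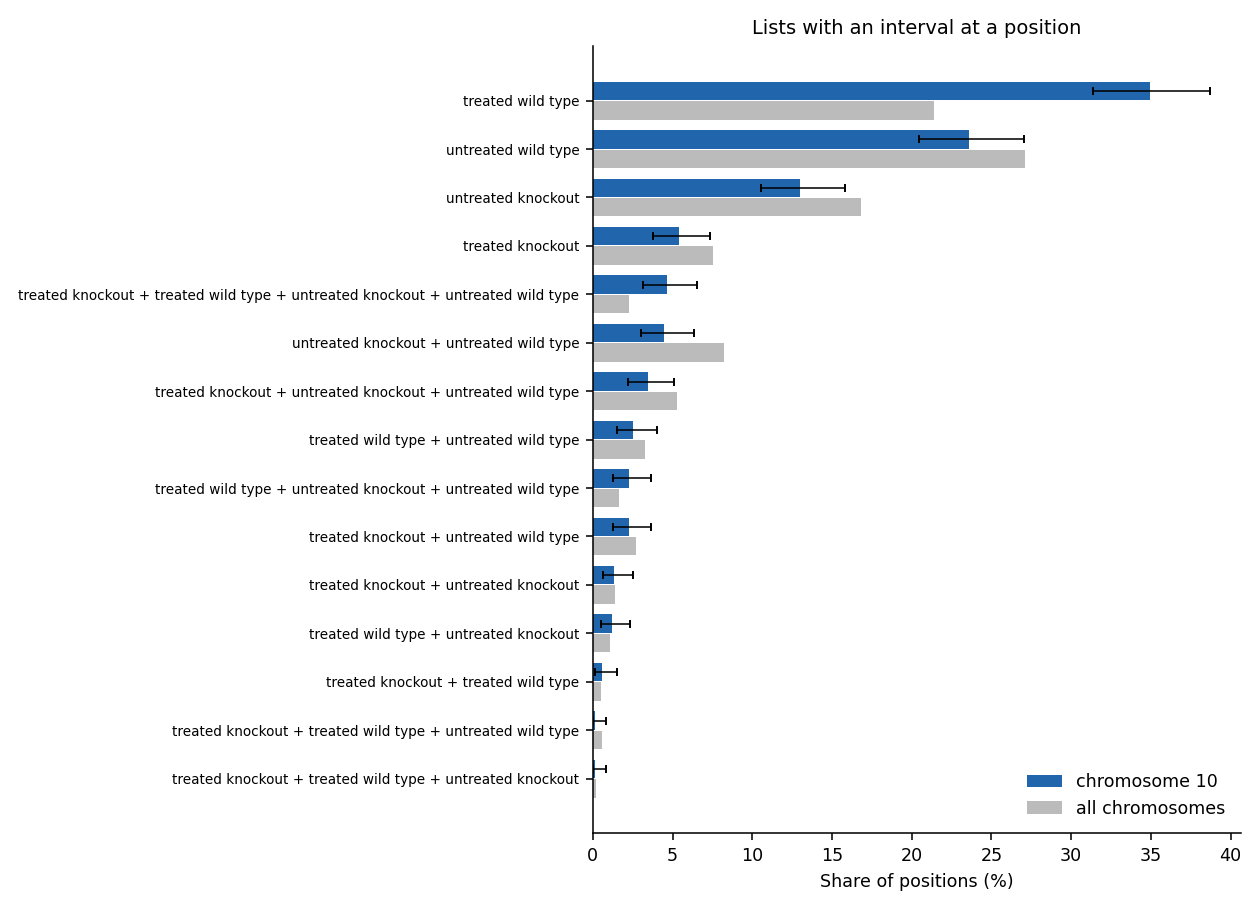
Share of joined positions in percent by the combination of lists that have an interval there, for chromosome 10 (upper bar, with the exact 95% counting interval) and all chromosomes (lower bar). Positions in treated wild type alone make up 35% on chromosome 10 and 21.4% over all chromosomes.

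Widths followed the list, not the chromosome. The median width on chromosome 10 was 1150 bp in treated knockout (interquartile range 750 to 1600), 1200 bp in treated wild type (950 to 1500), 1650 bp in untreated knockout (1250 to 2250) and 2600 bp in untreated wild type (2050 to 3550), each the same as the median of the other chromosomes of its list. In bases, the chromosome's intervals covered 203 kb in treated knockout, 452 kb in treated wild type, 454 kb in untreated knockout and 964 kb in untreated wild type. The treated wild-type list therefore had more intervals on chromosome 10 than the untreated wild-type list but covered fewer bases. Maxima were at the list median in all 4 lists (1 time), with the lowest at 0.625, 0.545, 0.6 and 0.417 times in the order of lists above. The part of these floors and of the widths in the differences of counts was not tested.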

How the data were processed

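TOP2B CUT&RUN of PC9 cells was analysed from 4 deposited interval lists, each from 2 of the 8 TOP2B libraries; the 8 H2A libraries were not analysed here. Per the submitters' processing notes, Trimmomatic, FastQC, Bowtie2 2.4.2, SAMtools 1.16, SEACR, deepTools 3.5.1 and bedtools 2.30 were used with GRCh37; how SEACR was set, its control and the scaling are not stated there. The area of a called peak is a deposited score, and its maximum a deposited signal, the authors' highest coverage in the peak; both belong to the called peak, which can be split into several intervals. Sequencing depth is unknown from the lists, so precision is given as exact binomial (Clopper-Pearson) or exact conditional 95% intervals, counting error only.

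Intervals were counted by midpoint with Python 3.11.15, pandas 2.3.3 and scipy 1.17.1, tested on simulated data. Windows of 5 Mb needed 10 intervals in either list. Per comparison the 3 highest and 3 lowest windows, and per list the 3 highest called peaks of arms and of pericentromere and the widest interval, were named; the leading peaks of the segments beyond the proximal one and the single short-arm intervals were chosen after their values were seen. Members, windows and comparisons were chosen with earlier results of these data known. The METTL7A locus was not examined, so genotype labels were not checked. Alternatives were called peaks, summed length, a stricter maximum, equal list length, other windows and other overlaps. Sequences are not shown, as a genome of the build was not used here.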

Additional observations from a re-analysis of the deposited data

Results flagged for a closer look

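In 2 regions flagged here the share ratio of osimertinib over untreated lay above 1 in one genotype and below 1 in the other. Regions with smaller counts did so too. The second segment had 0.495 in wild type and 1.33 in the knockout, the pericentromere 0.791 and 1.67. In the distal segment the ratios were at most 0.252 in wild type and 1.39 in the knockout. The fourth segment had 1.93 in wild type and no treated knockout interval. With 1 list per condition the difference between genotypes was not tested. Every knockout ratio given here has a counting interval that includes equality. For the window at 40 to 45 Mb the log2 share ratio (0.5 added to each count) was 0.46 in the knockout and -0.85 in wild type. Over the middle segment, 70.6 to 82.4 Mb, the share ratio was 0.435 in the knockout, on 6 treated and 23 untreated intervals, and 6.3 in wild type, on 195 treated and 49 untreated intervals. The window at 70 to 75 Mb overlaps that segment and holds the same 6 treated knockout intervals; its log2 share ratio was -0.09 in the knockout and 2.73 in wild type.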

How the results depend on the processing

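The share ratios of chromosome 10, its arms and its pericentromere stayed within their counting intervals when called peaks, summed length, higher maxima, lists of equal length or arms alone were used, wherever a ratio could be formed; segment ratios did so by called peaks, an alternative chosen after seeing the data. Counts of windows past 2-fold moved because other windows qualified. With 1 Mb windows they were 1 of 7 for untreated knockout over wild type (21.9% over all chromosomes), 9 of 13 for knockout over wild type under osimertinib (79%), 10 of 13 for osimertinib in wild type (69%) and 1 of 6 for osimertinib in the knockout (18.1%). With at least 20 intervals they were 1 of 4 (20.7%), 4 of 5 (75.2%), 3 of 5 (64.2%) and 0 of 2 (12.8%) in that order. Overlap depended on its definition. Requiring 50% of both intervals left counterparts for 15.6% of untreated knockout in untreated wild type and 12.3% of the reverse, 10.4% of treated knockout in treated wild type and 4.91% of the reverse, 3.76% of treated in untreated wild type and 4.32% of the reverse, and 14.1% of treated in untreated knockout and 9.7% of the reverse. Allowing a gap of 1 kb gave 62.9% and 41.5% for the untreated lists and 63.8% and 38.4% for the knockout lists, in the same order. Peaks at or above the list median gave 43.5% of untreated wild type in untreated knockout and 62.5% of treated in untreated knockout. No paired analysis was possible because each condition has 1 list made from both replicates, so leaving out a replicate could not be run either. Depth behind the lists is unknown.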
